A study of Mus musculus with 6 samples.

Results

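The immediate-early response genes Fos, Fosb, Jun, Junb, Egr1, Atf3, Ier2, Dusp1, Klf4 and Gadd45b were followed in RNA sequencing of STRA8+ cell suspensions from mouse testis. They were taken by symbol, and all 10 were found among the 54532 genes of the deposited table. The study has 3 control libraries, whose genotype is given as Cre, and 3 libraries from conditional knockout animals, and its title names BCAS2 and hnRNPH1 in the splicing behind break repair and synapsis of meiotic prophase I. The labels do not give the deleted gene, the promoter that drives Cre, the strain or age of the animals, or whether the libraries of a group came from separate animals. The p-values below rest on differences between these libraries only, and such differences can be technical.

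Immediate-early genes are switched on within minutes of a signal, without new protein synthesis. Kinase cascades such as the MAP kinases reach transcription factors already bound at their promoters, chiefly SRF with its ELK partners and CREB, and the transcripts are then removed quickly, in part through AU-rich elements in their 3′ untranslated regions. FOS and JUN family proteins pair through leucine zippers to form AP-1. In testis they are known to be expressed by somatic and germ cells alike.

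Most of the promoters examined carry TGACG, the core of the cAMP response element to which CREB and ATF proteins bind. Those of 5 genes are shown, because Fos, Fosb and Junb were higher in the knockout, Klf4 was lower and Dusp1 was neither, with the same letters in all of them. RefSeq start sites in GRCm38.p6, the assembly that mm10 represents, gave promoters for 8 of the 10 members; those of Egr1 and Ier2 were not analysed here. The sequences are the 250 bases upstream of the start, read 5′ to 3′ on the gene's own strand, with this core, on either strand, in capitals. They lie at chr12:85473640-85473889 (plus strand) for Fos, chr7:19310046-19310295 (minus strand) for Fosb, chr8:84978749-84978998 (minus strand) for Junb, chr17:26508473-26508722 (minus strand) for Dusp1 and chr4:55532476-55532725 (minus strand) for Klf4.
Fos: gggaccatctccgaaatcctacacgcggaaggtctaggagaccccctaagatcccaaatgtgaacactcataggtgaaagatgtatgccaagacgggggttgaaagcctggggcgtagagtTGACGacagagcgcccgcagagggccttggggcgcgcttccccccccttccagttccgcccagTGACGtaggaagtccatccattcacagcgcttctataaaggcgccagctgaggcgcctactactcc
Fosb: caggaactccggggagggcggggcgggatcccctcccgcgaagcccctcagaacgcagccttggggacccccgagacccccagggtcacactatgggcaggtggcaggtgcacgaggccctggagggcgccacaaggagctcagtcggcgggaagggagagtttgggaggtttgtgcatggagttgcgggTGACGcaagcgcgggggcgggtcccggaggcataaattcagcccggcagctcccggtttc
Junb: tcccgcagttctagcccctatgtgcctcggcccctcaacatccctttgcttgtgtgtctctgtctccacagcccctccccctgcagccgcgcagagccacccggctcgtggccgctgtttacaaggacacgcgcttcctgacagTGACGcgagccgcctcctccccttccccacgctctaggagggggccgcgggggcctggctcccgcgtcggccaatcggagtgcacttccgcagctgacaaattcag
Dusp1: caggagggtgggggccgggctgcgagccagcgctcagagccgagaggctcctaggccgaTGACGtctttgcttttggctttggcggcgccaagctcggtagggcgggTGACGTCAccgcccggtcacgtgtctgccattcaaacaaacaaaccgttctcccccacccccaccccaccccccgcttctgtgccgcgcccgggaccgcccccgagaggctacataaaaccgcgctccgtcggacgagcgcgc
Klf4: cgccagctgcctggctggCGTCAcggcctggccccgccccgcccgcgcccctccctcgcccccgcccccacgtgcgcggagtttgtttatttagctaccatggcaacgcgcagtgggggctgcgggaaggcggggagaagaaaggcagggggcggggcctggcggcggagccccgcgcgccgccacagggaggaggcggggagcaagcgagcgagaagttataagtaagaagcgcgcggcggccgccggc

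The core begins 66 and 129 bases upstream of the Fos start, 60 bases upstream in Fosb and 106 bases in Junb. Dusp1 has the full palindrome TGACGTCA 143 bases upstream, which holds the core on each strand, and a further core at 191 bases. Klf4 has a single core 232 bases upstream. On either strand, TGACG was present in 6 of the 8 member promoters (these 5 and Atf3) and in 17.8% of 32851 RefSeq promoters of the same length. The promoters of Jun and Gadd45b, genes that were higher in the knockout, do not hold these letters in this window. The GC box GGGCGG was in 7 of 8 member promoters and 32.7% of all, and TATAAA in 2 of 8 (Fos and Gadd45b) and 12.4%. The CArG box, to which SRF binds, and the AP-1 site (TGACTCA or TGAGTCA) were in 0 of the 8 and in 1.47% and 4.46% of all promoters. The 32851 promoters were not matched to the members for base composition, and its part in these differences was not tested. Only this window of 250 bases was searched. Sites further away, or at Egr1 and Ier2, would not be seen, so these genes cannot be said to lack them. A match of letters is a description and not a measured binding site.

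The libraries held 14532453 to 16963019 reads in the controls against 14770320 to 15204127 in the knockout, recovered from the deposited FPKM (fragments scaled by gene length and by a divisor for each library). The groups differed across most genes. Stra8, of which the cell label speaks, was at 11.5 to 22.6 FPKM in the controls against 125.4 to 136.8 FPKM in the knockout, and the summed level of 12 spermatid markers was 18960 to 22085 FPKM in the controls against 4.63 to 8.31 FPKM in the knockout. A set of 8 photoreceptor genes, checked because the extraction protocol speaks of retinas, summed to 2.55 to 3.12 and 1.80 to 2.14 FPKM, with Crx at 0 in all 6 libraries. In bulk samples fewer cells of a type and less RNA per cell cannot be told apart, and this holds for every difference below.

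Most of the immediate-early genes were higher in the knockout. Fos, Fosb, Jun, Junb, Egr1, Atf3, Ier2 and Gadd45b rose, Klf4 fell and Dusp1 did not pass the test. This is 8 of 10 higher, where 36.2% of the 16791 genes tested were higher, and 1 of 10 lower, where 50.4% were lower. All 10 passed the filter of a mean of 1 FPKM. The test was limma on log2(FPKM + 0.5), knockout minus control, with p-values adjusted over all genes tested. The median log2 fold change was 1.46 over the 10 genes and -0.41 over all genes tested. The read counts behind the single values ran from 17 (Atf3 in control replicate 1) to 5314 (Egr1 in knockout replicate 1). Leaving out control replicate 1, in which 9 of the 10 genes were at their lowest control level, reduced the count of higher genes from 8 to 4. In that fit 5864 of all 16791 genes tested were higher, against 6075 with all libraries.

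**Figure D1:**
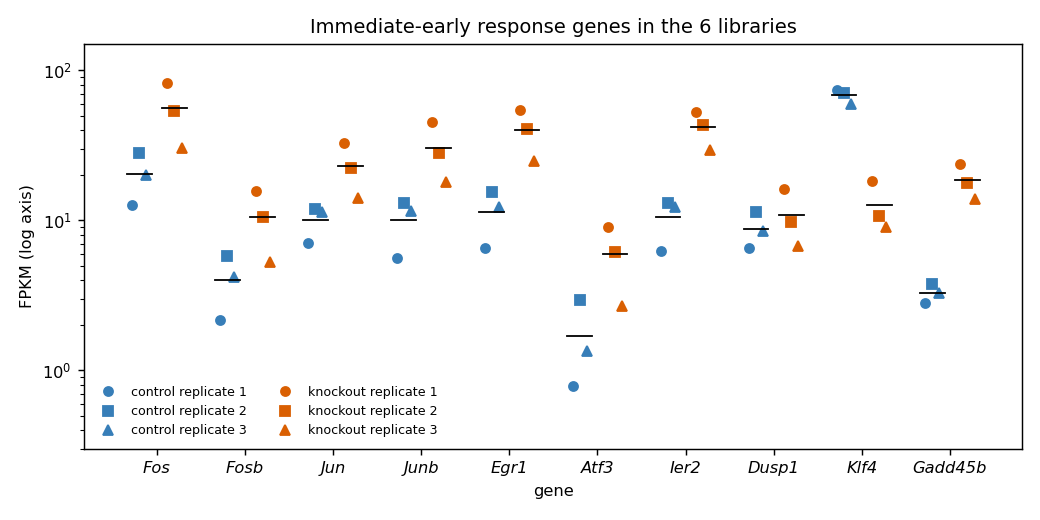
FPKM of the 10 immediate-early genes (log axis) in 3 control libraries (blue) and 3 knockout libraries (orange), with the replicate given by the marker and the group mean by the bar. Knockout replicate 1 (circles) is the highest knockout library and replicate 3 (triangles) the lowest for all 10 genes, and Klf4 alone is higher in every control library than in every knockout library.

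Fos (ENSMUSG00000021250, chromosome 12, 85473890 to 85477273 in mm10), the partner of JUN proteins in AP-1, had 12.6, 28.2 and 20.1 FPKM in control replicates 1, 2 and 3. The knockout libraries had 82.9, 54.0 and 30.3 FPKM in the same order. The groups did not overlap, but the lowest knockout library stood only just above the highest control. The means were 20.3 ± 7.80 FPKM (SD, n = 3) and 55.7 ± 26.3 FPKM (SD, n = 3), and the log2 fold change was 1.39 ± 0.392 (SE) with a limma adjusted p of 0.0102. Without control replicate 1 it was 1.10 with a limma adjusted p of 0.0541.

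Fosb (ENSMUSG00000003545, chromosome 7, 19302696 to 19310051), the closest relative of Fos among the members, was lower in level. Its values were 2.15, 5.75 and 4.19 FPKM in the controls against 15.7, 10.5 and 5.30 FPKM in the knockout. Knockout replicate 3 lay inside the control range. The log2 fold change of 1.24 ± 0.421 (SE) had a limma adjusted p of 0.0233, and this call held in 2 of the 6 fits that each left out 1 library, with adjusted p up to 0.103.

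Jun (ENSMUSG00000052684, chromosome 4, 95049034 to 95052222), the founding JUN family subunit of AP-1, had 7.03, 12.0 and 11.4 FPKM in the controls against 32.7, 22.4 and 14.1 FPKM in the knockout. All knockout libraries were above all controls. The log2 fold change was 1.11 ± 0.310 (SE) with a limma adjusted p of 0.00998, and 0.88 with a limma adjusted p of 0.0513 without control replicate 1. An antisense gene, Junos, overlaps Jun with 13 to 33 reads per library, against 225 to 2257 for Jun.

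Junb (ENSMUSG00000052837, chromosome 8, 84974484 to 84978718), which in many cells restrains the activity of JUN, had 5.58, 13.0 and 11.5 FPKM in the controls. Its knockout values were 45.2, 28.0 and 18.1 FPKM, all above the controls. The log2 fold change was 1.54 ± 0.385 (SE) with a limma adjusted p of 0.00566, which stayed past the threshold without any single library. The 3′ end of Junb overlaps that of Prdx2 on the other strand, which had 249 to 388 reads in the controls against 1103 to 1765 in the knockout. No source used here says whether the counting used strand, and the share of Junb reads that come from Prdx2 was not tested.

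Summed AP-1 transcripts were above all controls in each knockout library, and Fos had the largest mean share in both groups, although Jund exceeded it in control replicate 1 (13.2 against 12.6 FPKM). FPKM, a level per length, summed over Fos, Fosb, Fosl1, Fosl2, Jun, Junb and Jund, was 43.5, 77.9 and 66.4 in the controls against 213.5, 145.6 and 101.1 in the knockout. Fos took 31.8 ± 3.86% of the sum in the controls (SD, n = 3) and 35.3 ± 4.69% in the knockout. Jund, the least inducible JUN subunit, took 25.7 ± 4.49% and 21.4 ± 7.48%. Junb took 15.6 ± 2.41% and 19.4 ± 1.65%, Jun 16.2 ± 0.895% and 14.9 ± 0.794%. Fosl1, a late FOS relative, took 3.68 ± 1.98% and 0.794 ± 0.319%, and Fosl2 0.732 ± 0.190% and 1.59 ± 0.361%. No test was made on these shares.

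Atf3 (ENSMUSG00000026628, chromosome 1, 191170296 to 191218039), a stress-induced bZIP protein that often acts as a repressor, had the lowest levels of the 10. It was at 0.786, 2.93 and 1.36 FPKM in the controls, from 17, 83 and 36 reads. In the knockout it was at 9.03, 6.13 and 2.67 FPKM, and replicate 3 lay below control replicate 2. The log2 fold change was 1.54 ± 0.467 (SE) with a limma adjusted p of 0.0146. The call was lost without control replicate 1, control replicate 3 or knockout replicate 1, with limma adjusted p of 0.0727, 0.0577 and 0.0508.

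Egr1 (ENSMUSG00000038418, chromosome 18, 34859823 to 34864984), a zinc finger factor that carries growth factor signals to later genes, had 6.51, 15.4 and 12.3 FPKM in the controls. Its knockout values were 54.8, 40.5 and 24.9 FPKM. The groups did not overlap, and the log2 fold change was 1.78 ± 0.358 (SE) with a limma adjusted p of 0.00178. Without any single library it stayed between 1.44 and 2.08 and past the threshold.

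Ier2 (ENSMUSG00000053560, chromosome 8, 84661331 to 84662852), a small intronless early response gene, had 6.28, 13.1 and 12.4 FPKM in the controls against 52.9, 43.0 and 29.3 FPKM in the knockout. The groups were well apart, with the lowest knockout library above the highest control by more than the whole control range. Its log2 fold change was 1.96 ± 0.304 (SE) with a limma adjusted p of 0.000401.

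Gadd45b (ENSMUSG00000015312, chromosome 10, 80930073 to 80932204), which binds MAP kinase kinases and is induced by stress and NF-kappa-B, had the largest rise of the 10. The controls were close together at 2.82, 3.78 and 3.27 FPKM, and the knockout libraries had 23.7, 17.9 and 13.8 FPKM. Its log2 fold change was 2.30 ± 0.198 (SE), a 5.61-fold ratio of the means, with a limma adjusted p of 1.2e-05. The value ranged from 2.10 to 2.48 over the fits without 1 library.

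Dusp1 (ENSMUSG00000024190, chromosome 17, 26505590 to 26508519), the phosphatase that switches MAP kinases off again, did not separate the groups. It had 6.50, 11.4 and 8.49 FPKM in the controls against 16.1, 9.73 and 6.71 FPKM in the knockout. Knockout replicates 2 and 3 lay inside the control range and only replicate 1 above it. The log2 fold change was 0.24 ± 0.312 (SE) with a limma adjusted p of 0.491. It turned to -0.08 without knockout replicate 1. After reads were scaled to 1000000 per library it was 1.11, with a limma adjusted p of 0.0170.

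Klf4 (ENSMUSG00000003032, chromosome 4, 55527143 to 55532466), a Krüppel-like factor that is known in testis from Sertoli cells and round spermatids, went the other way. It was at 74.2, 70.9 and 59.3 FPKM in the controls, the highest control levels of the 10. The knockout libraries had 18.4, 10.7 and 9.09 FPKM, all far below. The log2 fold change was -2.43 ± 0.239 (SE) with a limma adjusted p of 2.6e-05, and -1.29 after FPKM were scaled to a sum of 1000000 in each library. The spermatid markers given above were also lower in the knockout, by far more. Their sum there was 4.65, 8.31 and 4.63 FPKM, too near the floor for its order of libraries to be set against that of Klf4. Any part of spermatids in the fall of Klf4 was not tested.

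In order of mean FPKM in the controls, Klf4 (68.2 ± 7.82) was first and Fos (20.3 ± 7.80) second. Egr1, Ier2, Jun, Junb and Dusp1 followed between 8.80 and 11.4 FPKM, with SDs of 2.47 to 4.52 FPKM and overlapping ranges. All of these were lowest in replicate 1 and highest in replicate 2, and differences between genes within a library were not tested. Fos and Egr1, next to each other in this order, overlapped in range, although Fos was above Egr1 in every library. Fosb (4.03 ± 1.81), Gadd45b (3.29 ± 0.482) and Atf3 (1.69 ± 1.11) came last. In the knockout Fos (55.7 ± 26.3), Ier2 (41.7 ± 11.8), Egr1 (40.1 ± 14.9) and Junb (30.4 ± 13.7) led, with overlapping spreads. Klf4 (12.7 ± 4.99) had become the seventh of the 10.

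The replicate libraries of a group were mostly less alike in these genes than in most genes tested. In the knockout, replicate 1 was highest and replicate 3 lowest for all 10 genes, an order found in 14.7% of all genes tested. In the controls replicate 2 was highest and replicate 1 lowest for 9 of 10, the exception being Klf4, and in 16.3% of all genes tested. Both orders together held for 9 of the 10 and for 2.55% of all. The highest knockout library exceeded the lowest by 2.74-fold for Fos, 2.97-fold for Fosb and 3.38-fold for Atf3, and by 1.71-fold for Gadd45b. On the log2(FPKM + 0.5) scale the median SD between knockout replicates was 0.60 for the 10 genes and 0.13 for all genes tested. Between control replicates it was 0.56 and 0.18. All 10 had a larger knockout SD than 91.3% of the genes tested, while Klf4 and Gadd45b had control SDs below the median of all genes, at percentiles of 45.3 and 49.9. The added 0.5 holds down the SD of genes near 0 FPKM in a group. An SD below 0.05 was found in 16.5% of the genes tested in the knockout and 5.45% in the controls. No genes matched for level were compared, so the contrast with all genes may be overstated, above all in the knockout.

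**Figure D2:**
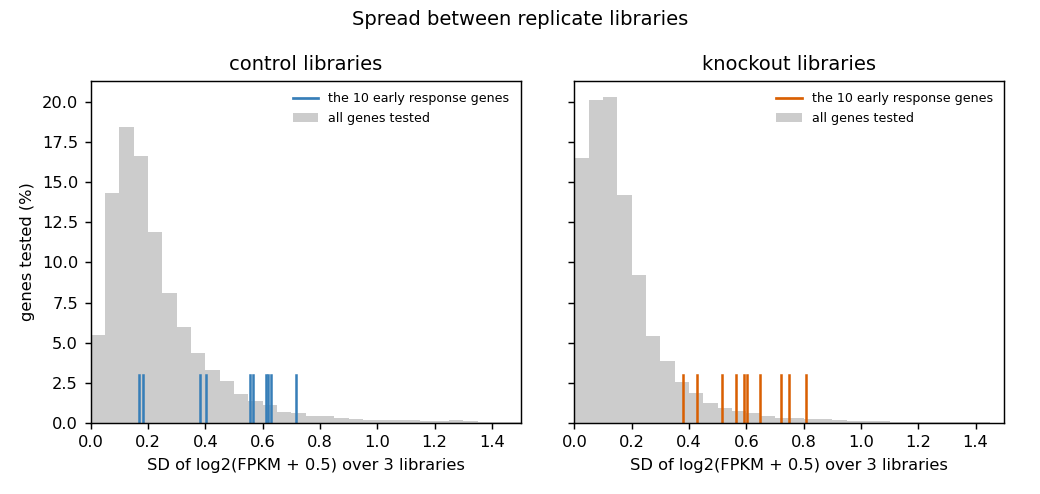
Histograms of the SD of log2(FPKM + 0.5) over the 3 control (left) and 3 knockout libraries (right), in percent of the 16791 genes tested (grey; 110 and 31 genes with an SD of 1.5 or more lie beyond the axis), with the 10 immediate-early genes as coloured lines. In the knockout all 10 lines lie in the right tail, around a median of 0.60, and in the controls 6 of 10 lie above the 90th percentile. The genes in grey are not matched to the 10 for level.

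Sertoli cell markers were low and high in some of the same libraries. Of 13 Sertoli markers tested 13 were higher in the knockout, where 36.2% of all genes tested were, with a median log2 fold change of 1.66. Their summed level was 199.5, 316.3 and 415.4 FPKM in the controls against 1219, 858.1 and 743.2 FPKM in the knockout. Among the 13, knockout replicate 1 was highest and replicate 3 lowest in 12, and control replicate 1 was lowest in 12. Among the controls their sum was highest in replicate 3, where the members' own sum of 124.5, 176.4 and 144.2 FPKM was highest in replicate 2. Clu, a secreted chaperone of Sertoli cells, had 65.8, 127.4 and 160.6 FPKM in the controls against 547.5, 334.7 and 289.2 FPKM in the knockout, and Sox9, the factor that specifies these cells, had 1.37, 1.91 and 2.41 and then 15.7, 10.4 and 7.44 FPKM. None of the 14 listed Sertoli genes was at 0 in all libraries. Amh and Fshr, with control means of 0.940 and 0.835 FPKM, passed the filter only through the knockout libraries.

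Macrophage markers had the members' order of libraries in the controls and the same highest library in the knockout, where replicate 2 was their lowest. Their sum was 62.5, 105.9 and 78.7 FPKM in the controls against 318.7, 99.7 and 123.2 FPKM in the knockout, where 4 of 10 genes were called higher, among them Csf1r and C1qa, and 6 passed in neither direction. This count moved with the scaling, to 10 with equal FPKM sums (each library scaled to 1000000) or quantile normalization, 9 with reads scaled to 1000000 and 7 with limma voom. Over all 16791 genes tested, 6075 were higher as deposited, and 9109, 8745, 8491 and 6646 under these 4 scalings. Leydig cell markers summed to 91.1, 151.5 and 95.4 FPKM in the controls against 80.5, 42.9 and 22.5 FPKM in the knockout, with the members' order of libraries within both groups but lower levels in the knockout. Knockout replicate 1 was highest and replicate 3 lowest in 6 of the 7 tested, and control replicate 1 lowest in 6. As deposited 4 of 7 were lower and 2 higher, and with equal FPKM sums 1 was lower and 2 higher. The genes lower over all those tested went from 8462 to 6084 between these settings. Peritubular muscle markers had 1 of 5 lower (Actg2) and 4 in neither direction, and 1 lower and 3 higher with equal FPKM sums, and endothelial markers summed to 3.71 to 5.31 FPKM over all 6 libraries, with 1 of 8 genes reaching the filter. Undifferentiated spermatogonia markers, 5 of 8 higher and 2 lower, summed to 53.3, 73.7 and 68.8 FPKM in the controls against 256.3, 260.6 and 330.0 FPKM in the knockout. They had the members' order of libraries in the controls, but knockout replicate 3 was their highest. Differentiating spermatogonia markers were higher in 8 of 9 and lower in 1, and pachytene spermatocyte markers lower in 10 of 10. Lymphocyte markers had 2 of 7 genes at the filter (1 higher, 1 lower) and erythroid markers 3 of 6 (0 higher, 1 lower).

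The members were also set against the summed Sertoli markers of the same library, a ratio chosen after the data were seen. Abundant markers such as Clu weigh most in this sum. Single markers rose unequally, with ratios of the means of 5.88 for Sox9 and 2.28 for Amhr2, so the ratios depend on the markers used. Fos per 1000 FPKM of Sertoli markers was 63.3, 89.2 and 48.3 in the controls against 68.0, 63.0 and 40.8 in the knockout. The groups overlapped for 6 of the 10 genes (Fos, Fosb, Junb, Egr1, Atf3 and Ier2). Gadd45b was the single gene above all controls, with 14.1, 12.0 and 7.87 against 19.4, 20.8 and 18.6. Jun, although higher in FPKM, was below all controls in this ratio (35.2, 37.8 and 27.4 against 26.8, 26.2 and 19.0), as were Dusp1 and Klf4, with Dusp1 at 29.7 ± 8.20 in the controls and 11.2 ± 2.09 in the knockout (SD, n = 3). Set against the undifferentiated spermatogonia markers in the same way, 7 genes overlapped, none was higher without overlap and 3 (Jun, Dusp1 and Klf4) were lower. For neither ratio were such counts made over all genes tested, so they cannot be called particular to the members. These ratios do not depend on how libraries were scaled to each other, and the part of any cell type in the rises was not tested.

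**Figure D3:**
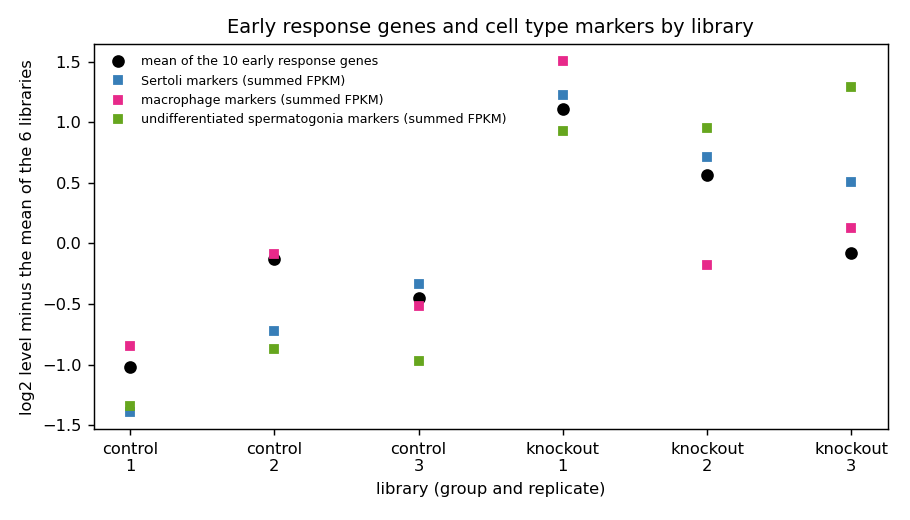
Log2 level in each library minus the mean of the 6 libraries, for the mean of the 10 immediate-early genes (black circles) and the summed FPKM of Sertoli, macrophage and undifferentiated spermatogonia markers (coloured squares). Every series drawn has its lowest value in control replicate 1. The early genes, the Sertoli markers and the macrophage markers are highest in knockout replicate 1, and the spermatogonia markers in knockout replicate 3.

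The scaling between libraries set the size of the changes more than the direction. Over equal FPKM sums, quantile normalization, reads scaled to 1000000 and limma voom on the recovered reads, the 8 rises and the fall of Klf4 kept their calls. The members' median log2 fold change was 2.67, 2.53, 2.29 and 1.70 under these, and the median of all genes tested was 0.71, 0.53, 0.42 and -0.24. Dusp1 was the gene whose call depended on the scaling, being higher under the first 3 of these.

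**Figure D4:**
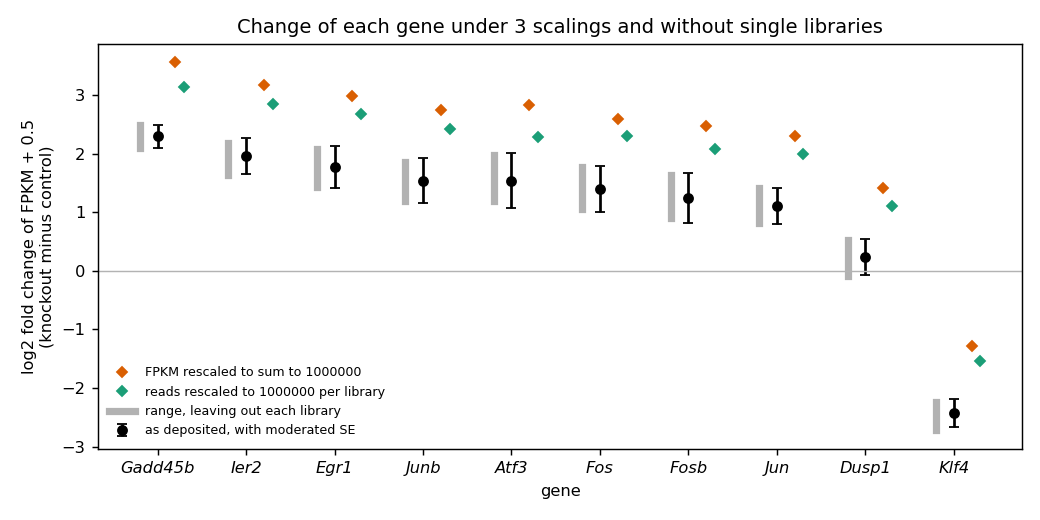
Log2 fold change of FPKM + 0.5 (knockout minus control) of each gene as deposited (black, with the moderated SE), under 2 other scalings (diamonds), and the range over the 6 fits that each leave out 1 library (grey bars). Gadd45b is highest at 2.30, Dusp1 is near 0 as deposited, and Klf4 is below 0 in every setting drawn.

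The 5 genes most like the members over the 6 libraries, by Pearson r with the members' mean centred log2 profile, were Zfp36, Eps8, Pld3, Pkdcc and Cyp2d22, with r of 0.991 to 0.996. These are the closest of the protein-coding genes tested outside the members, leaving out predicted and clone names, over 6 points that share a group difference. Zfp36 encodes tristetraprolin, which brings AU-rich transcripts to decay. It had 3.85, 7.37 and 6.18 FPKM in the controls against 24.8, 14.1 and 8.91 FPKM in the knockout. The order of libraries was that of Fos, which follows from how the gene was picked. The log2 fold change of Zfp36 was 1.31 ± 0.363 (SE) with a limma adjusted p of 0.00945. The profile used to pick it holds the group difference, so this value is no separate support. Eps8, an actin-regulating protein of Sertoli cell junctions, did not pass, with a limma adjusted p of 0.0601.

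Relatives of the bZIP members were mostly higher. Of 14 AP-1 and ATF relatives 10 passed the filter, 7 were higher and 2 lower, with a median log2 fold change of 1.16. Over all genes tested 36.2% were higher and 50.4% lower. Mafg and Mafk, small MAF proteins, were at 1.95 to 2.73 and 1.92 to 3.41 FPKM in the controls against 9.62 to 10.5 and 7.92 to 11.1 FPKM in the knockout. Jund rose from 13.2, 16.7 and 16.9 to 33.3, 27.3 and 30.2 FPKM, with knockout replicate 2 the lowest of its group, unlike Jun and Junb. Fosl2 rose from a mean of 0.463 FPKM to 2.30 FPKM. Fosl2 and Maff (0.408 FPKM in the controls) passed the filter only through the knockout libraries. The filter thus all but set their calls as higher. The genes called lower, Fosl1 and Atf2, had log2 fold changes of -0.67 and -0.73 as deposited and 0.26 and 0.44 with equal FPKM sums.

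Among 36 other early response genes 32 passed the filter, 22 were higher and 8 lower, with a median of 0.89. The shares over all genes tested were 36.2% higher and 50.4% lower. With equal FPKM sums, 25 were higher and 3 lower, where 9109 of all 16791 genes tested were higher and 6084 lower. Nfkbia, the feedback inhibitor of NF-kappa-B, had 2.91, 6.48 and 4.79 FPKM in the controls against 37.9, 24.8 and 17.4 FPKM in the knockout, again highest in replicate 1. Egr2 had 0.674, 1.75 and 0.908 and then 8.69, 4.15 and 2.60 FPKM. The other members of the GADD45 family, Gadd45a and Gadd45g, had log2 fold changes of 2.13 and 1.65. Gadd45a, Tnfaip3 and Cebpb averaged 0.816, 0.651 and 0.642 FPKM in the controls and passed the filter only through the knockout libraries. Dusp4, called lower, averaged 0.335 FPKM in the knockout and passed only through the controls. The filter thus all but set the direction of these calls. Klf10 and Errfi1, a feedback inhibitor of EGF receptor, rose with values of 1.60 and 1.47. Knockout replicate 1 was highest and replicate 3 lowest in 19 of the 32.

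The largest falls in this list were those of Dusp4 and Arc. Arc, known as an immediate-early gene of neurons, went from 136.0, 115.8 and 120.1 FPKM to 5.58, 5.76 and 6.54 FPKM, and Dusp4, a nuclear MAP kinase phosphatase, from 13.4 to 19.6 FPKM to 0.180 to 0.455 FPKM. Their log2 fold changes were -4.27 and -4.38. Along with Csrnp1 (-1.86) they were the 3 genes lower under all 5 scalings. Egr3, Ier5, Nr4a1, Klf2 and Per1 were called lower as deposited only, or in a part of the scalings, and Per1 was higher, at 0.58, with equal FPKM sums.

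**Figure D5:**
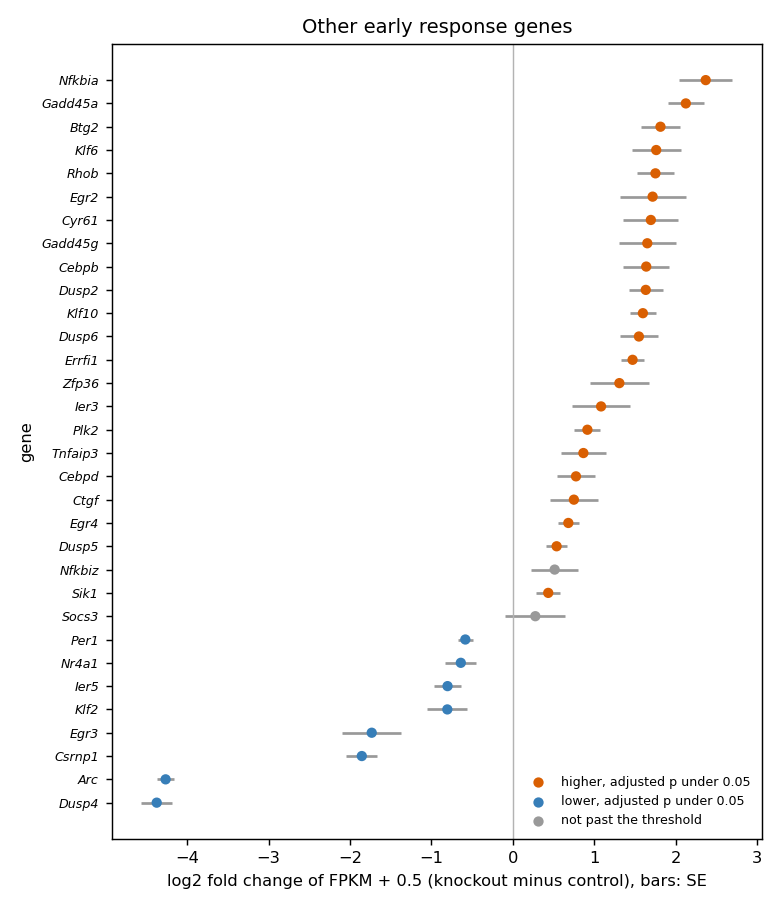
Log2 fold change of FPKM + 0.5 (knockout minus control, bars: SE) of the 32 other early response genes that passed the filter, coloured by call. The 22 genes called higher reach from Sik1 to Nfkbia at 2.37, and Arc and Dusp4 stand apart below -4.

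Upstream of these genes, 13 of 26 kinases and factors were higher and 11 lower, with a median of 0.41, where 36.2% of all genes tested were higher and 50.4% lower. With equal FPKM sums 22 were higher and 3 lower, and the counts over all 16791 genes tested moved the same way, to 9109 higher and 6084 lower. Rps6ka3, the ERK-activated kinase RSK2, had a log2 fold change of 1.99, while Rps6ka4 (MSK2) had -2.39. Elk1 and Elk4, the partners of SRF, were at 1.73 and 1.75. Elk1, at a mean of 0.443 FPKM in the controls, passed the filter only through the knockout libraries. Srf was at 27.9 FPKM on average in the controls against 19.0 in the knockout, with a log2 fold change of -0.54 as deposited and 0.63 with equal FPKM sums. Crem, whose activator form drives spermatid genes, went from 55.3 to 72.3 FPKM to 2.06 to 3.19 FPKM and was lower under all 5 scalings, as were Mapk10 and Rps6ka4. Mapk10 averaged 0.653 FPKM in the knockout and passed the filter only through the controls.

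The proteins that bind AU-rich elements were higher in 5 of 8 cases and lower in 0, with a median of 0.52. Of all genes tested 36.2% were higher and 50.4% lower. Zfp36l2, a relative of tristetraprolin, rose from 3.78, 7.07 and 5.61 FPKM to 31.2, 21.4 and 22.2 FPKM, and Khsrp, a decay factor, from 17.8 to 19.8 FPKM to 44.9 to 49.1 FPKM. Elavl1, which stabilizes such transcripts, averaged 10.8 and 10.5 FPKM and did not pass as deposited. By the 3′ untranslated regions of their longest GENCODE M21 coding transcripts, the 10 members had a median of 2.09 copies of the pentamer ATTTA per 1000 bases, against 1.20 over 12655 protein-coding genes tested. The members were unlike each other, from 0 in Ier2 and Gadd45b to 5.80 in Dusp1. Fosb (0.466) and Klf4 (1.02) also lay below 1.20, and the rest lay above it. The nonamer TTATTTATT was in 2 of the 10, Fos and Dusp1, and in 7.05% of all.

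The members are compact genes. They have 1 to 5 exons in those transcripts, with a median of 4, against 9 over all protein-coding genes tested, and Jun, Junb and Ier2 have a single exon there. Among the 2826 protein-coding genes tested with 1 to 4 exons, 35.7% were higher in the knockout and 50.8% lower. Genes with 5 or more exons were higher in 44.4% and lower in 42.6%. Klf4 is the member with 5 exons, and any tie between exon number and its fall was not tested.

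Of 10 heat shock genes, which many stresses induce along with immediate-early genes, 6 were higher and 3 lower, with a median of 1.23. Again, 36.2% of all genes tested were higher and 50.4% lower. Hspa1a, the stress-induced HSP70, was at 0.470 to 0.744 FPKM in the controls against 1.37 to 2.51 FPKM in the knockout, and Hspb1 at 10.4 to 12.9 and 41.1 to 74.7 FPKM, both highest in knockout replicate 1. Dnajb1 and Bag3, their cochaperones, fell with log2 fold changes of -2.98 and -2.79. Knockout replicate 1 was highest and replicate 3 lowest in 2 of the 10. Hspa1a, with a control mean of 0.614 FPKM, passed the filter only through the knockout libraries.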

How the data were processed

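Gene expression was measured by RNA sequencing in 3 control and 3 conditional knockout libraries, grouped and numbered by their titles. Per the submitters' processing notes, HISAT2 2.0.5 and the genome build mm10 were used. How reads were counted, on which annotation and with what use of strand is not given in the sources used here. The authors deposited FPKM for 54532 genes. Multiplied by gene length, 100% of nonzero values were whole multiples of 1 read (within 0.01 read). The authors' divisor per library was 0.691 to 0.774 times the recovered total in control libraries and 1.37 to 1.42 times in knockout libraries, which lowers deposited knockout levels against shares of reads.

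limma 3.58.1 (R 4.3.3) was fitted to log2(FPKM + 0.5) for genes averaging 1 FPKM or more, with a mean-variance trend, Benjamini-Hochberg adjustment over all genes tested and a threshold of 0.05. That average ran over all libraries, so a gene near the floor in either group could pass through the other. The direction of its call was then all but set. The procedure was tested on simulated data whose replicates varied less than the members do here, so that test does not bear on their calls. Alternatives were other pseudocounts, filters and scalings, a fit without the trend, array weights, a replicate block, voom on the recovered reads (TMM factors) and leaving out each library. Python 3.11.15 with pandas 2.3.3 and matplotlib 3.10.9 made the tables and figures. Gene models came from GENCODE M21, where 9 of the 10 members have the deposited coordinates, and promoters from RefSeq.

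The members and lists were chosen with earlier results of these data known. The genes named were the 10 members, up to 4 genes of each other list by smallest p, and the 5 coding genes most like the members' mean profile. All other genes named with values, such as Nfkbia, Egr2, Jund, Elavl1, Srf, Clu and Hspa1a, were named after their values were seen.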

Additional observations from a re-analysis of the deposited data

How the results depend on the processing

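Of 109 values of single members under alternatives other than leaving out a library, 99 kept their direction and their side of the threshold. The count of 8 genes higher fell to 3 (Egr1, Ier2 and Gadd45b) with no filter on low values. There 7225 of 54532 genes tested were higher, and the cause was not tested. Leaving out 1 library in turn gave 4 to 8 genes higher, with 4 without control replicate 1. The count of 1 gene lower, Klf4, was the same in each alternative run. Dusp1, which did not pass, turned to -0.0228 with array weights and ranged from -0.08 to 0.52 when 1 library was left out. Fosb did not pass with array weights (limma adjusted p of 0.0776). With a filter at 5 FPKM, Atf3 was not tested and 7 genes were higher. With the replicate number as a block, 8 genes were higher and 1 lower. Control and knockout libraries of the same number did not deviate together from their group means, with r of -0.12, -0.05 and -0.04 across genes, so the numbers were not taken as pairs, and no library correlated best with its own number. Depth limits mainly Atf3, with 17 reads in control replicate 1.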
